A study of Homo sapiens with 4 samples.

Results

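NF-kB is a family of dimeric transcription factors, and the 40 genes described here were chosen by name for their part in it: its subunits, the proteins that hold it back or switch it on, and genes it induces as feedback. Of the 40, 36 had a row among the 15201 gene IDs of the expression table, and 33 had a mean of 1 FPKM or more over the 4 libraries and were tested among 13411 genes. FPKM counts fragments per kilobase of transcript in libraries scaled for depth, so levels of different genes can be compared. REL, NFKBIZ and TRAF1 lay under 1 FPKM and were not tested. The expression of NFKBIB, CD40, LTBR and RNF31 is not analysed here, though the promoter counts below include NFKBIB, LTBR and RNF31. The samples were RNA-seq libraries of ARP-1, an established human multiple myeloma line, with 2 libraries of wild-type cells (WT) and 2 of cells made resistant to carfilzomib (CfzR), an inhibitor of the proteasome. The sources used here do not state the dose and time of drug exposure, or whether CfzR cells came from 1 clone.

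In resting cells the dimers are held in the cytoplasm by inhibitors of the IkB family. In the canonical pathway, receptors such as the TNF receptor act through ubiquitin-modifying adaptors on the kinase complex IKK, which marks IkB for destruction by the proteasome. In the non-canonical pathway, receptors such as CD40 and the BAFF receptor free the kinase NIK from a TRAF and cIAP complex that otherwise degrades it, and the proteasome then trims the precursor made by NFKB2 to its active form. Both routes therefore use the protease that carfilzomib blocks, and mutations in several of these regulators, TRAF3, CYLD and the cIAP genes among them, are known in myeloma.

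Most NF-kB genes lay close to their WT level in CfzR cells. Of the inhibitors and feedback targets, BIRC3, TNFAIP3 and NFKBIA stood furthest above it of all members. CFLAR, of the same group, stood furthest below, with overlapping groups (log2 fold change -0.53). BIRC3, TNFAIP3, NFKBIA and the non-canonical regulator TRAF3 were each higher in both CfzR libraries than in either WT library, with mean FPKM 17.7-fold, 3.40-fold, 1.65-fold and 1.58-fold that of WT. BIRC3 was near 0 in WT, so its fold is imprecise, at 11.99 without WT replicate 1 and 33.8 without WT replicate 2. No member passed a Benjamini-Hochberg adjusted p of 0.05 in limma, against 0.35% of all genes tested, and the lowest adjusted p was 0.0745, for BIRC3. These 4 were the members with an unadjusted p under 0.05 (12.1% of the 33, all higher in CfzR). Over all genes tested that share was 11.1% in either direction, with 5.32% higher and 5.81% lower. Leaving out BIRC3, which reached the filter only through its CfzR level, left 3 of 32 members.

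The label of the cells was read against marker lists. Of 11 plasma cell markers 10 had a row, with summed levels of 5916 to 5990 FPKM in the WT libraries against 6152 to 6722 in the CfzR libraries. Most of this sum was the immunoglobulin chain JCHAIN, at 3493 to 4601 FPKM. One marker, the surface receptor SLAMF7, rose from 0.282 and 0.198 FPKM to 22.1 and 18.7 (log2 fold change 4.10, SE 0.22, limma adjusted p = 0.000525), and the other 9 did not pass. XBP1, a plasma cell transcription factor, and TNFRSF17 were lower without overlap, with mean FPKM 0.819-fold and 0.677-fold that of WT. JCHAIN, PRDM1 and SDC1 were higher without overlap, at 1.19-fold, 1.22-fold and 1.23-fold, as was SLAMF7. In all, 4 markers were higher and 2 lower without overlap (60% of the 10 tested, against 44.7% of all genes tested). SLAMF7 had a WT mean of 0.240 FPKM and reached the filter only through its CfzR level, so this share is not read as support. B cell, myeloid and stromal lists had 1 gene each with a row (of 7, 8 and 8), and their summed levels did not exceed 6.01 FPKM in any library. GNLY was the row found among 9 T and NK cell markers, and its level was 23.4 and 25.2 FPKM in WT but 1.35 and 1.80 among CfzR libraries (log2 fold change -3.30, adjusted p = 0.00113). The part of these differences in the results below was not tested. CfzR replicate 1 stood apart by transcript length. Across 12896 genes its log2 difference from the WT mean had a Spearman correlation of 0.383 with length and -0.361 with GC share, against -0.0147 and -0.0922 for CfzR replicate 2. The difference between the CfzR libraries had correlations of 0.466 and -0.35, and that between the WT libraries 0.146 and 0.0793. Over the 33 members those correlations were 0.413 and -0.423 for the CfzR pair, as a description without a test. Values corrected for both properties, an alternative chosen after the data were seen, are given beside several results and called corrected.

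**Figure D1:**
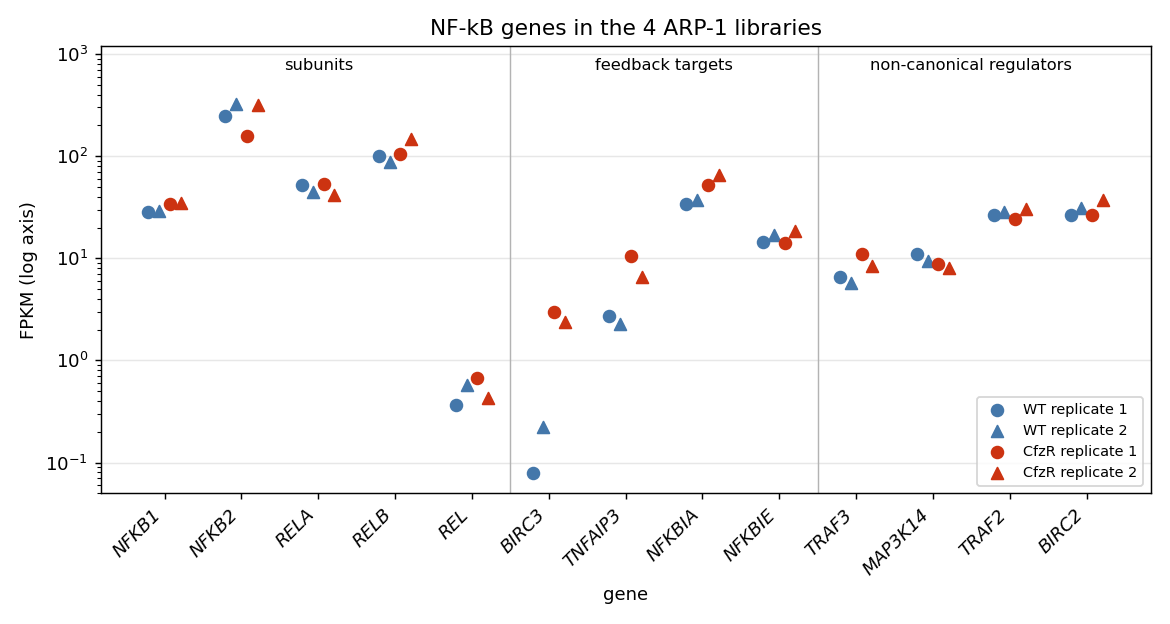
FPKM on a log axis for 13 NF-kB genes in each of the 4 libraries, blue for WT and red for CfzR, circles for replicate 1 and triangles for replicate 2. BIRC3, TNFAIP3, NFKBIA and TRAF3 have both red points above both blue points, while NFKB2 and RELA overlap.

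The promoters of 4 genes of the feedback circuit are shown first, because kappa B sites are the sequences through which NF-kB dimers induce their own inhibitors. Each line gives the 250 bases before the transcription start of RefSeq (GRCh38.p14), 5′ to 3′ in the direction of the gene, with matches to the NF-kB consensus in capitals on either strand. BIRC3, TNFAIP3 and NFKBIA are the feedback genes that stood highest in CfzR, and NFKB2, the precursor of the non-canonical subunit, is shown for contrast since its CfzR libraries lay on opposite sides of the WT mean.
BIRC3 (chr11:102317234-102317483, plus strand): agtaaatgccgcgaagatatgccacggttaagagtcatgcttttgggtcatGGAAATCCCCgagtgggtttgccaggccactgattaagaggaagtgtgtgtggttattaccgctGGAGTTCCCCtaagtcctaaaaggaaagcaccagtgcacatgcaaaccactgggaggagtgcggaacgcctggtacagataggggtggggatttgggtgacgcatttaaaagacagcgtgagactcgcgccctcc
TNFAIP3 (chr6:137867009-137867258, plus strand): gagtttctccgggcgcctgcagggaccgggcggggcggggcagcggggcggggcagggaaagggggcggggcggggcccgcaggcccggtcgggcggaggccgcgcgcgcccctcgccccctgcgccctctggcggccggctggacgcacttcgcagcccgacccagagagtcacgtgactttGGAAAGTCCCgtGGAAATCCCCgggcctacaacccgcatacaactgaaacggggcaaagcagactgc
NFKBIA (chr14:35404750-35404999, minus strand): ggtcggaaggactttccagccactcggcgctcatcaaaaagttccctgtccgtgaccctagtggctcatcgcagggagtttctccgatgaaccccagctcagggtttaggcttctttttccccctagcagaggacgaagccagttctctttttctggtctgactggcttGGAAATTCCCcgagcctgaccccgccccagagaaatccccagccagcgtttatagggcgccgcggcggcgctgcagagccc
NFKB2 (chr10:102394328-102394577, plus strand): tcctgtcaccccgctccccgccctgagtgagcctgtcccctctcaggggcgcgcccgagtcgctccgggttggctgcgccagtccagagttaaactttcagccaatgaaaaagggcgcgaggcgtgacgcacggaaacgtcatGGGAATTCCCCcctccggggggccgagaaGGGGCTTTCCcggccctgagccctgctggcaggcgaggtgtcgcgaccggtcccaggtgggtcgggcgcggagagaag
Matches began 199 and 135 bases before the start in BIRC3, 67 and 55 in TNFAIP3, and 81 in NFKBIA. In NFKB2 a pair of overlapping matches on opposite strands began 107 and 106 bases before this start and a further match 78 bases before it. The bases after this start were not found in an NFKB2 transcript of GENCODE release 29, while those after its other RefSeq starts were. The window shown is the NFKB2 window with the most matches of 3 in RefSeq, and the others held 0 and 2. A match was found in 9.96% of all 35116 windows of this kind and in 15 of 58 windows of the members (25.9%). By gene, 13 of 34 members with a window held one (38.2%, against 11.8% of all genes). They were 8 of 11 inhibitors and feedback targets, 3 of 4 subunits, 1 of 13 canonical regulators (TAB2), 1 of 4 non-canonical regulators (TRAF3) and 0 of 2 receptors. The members had been chosen as genes of this circuit, many of them known targets, so the higher share describes the choice. No window without a match says more than that these letters were not in it.

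Among the subunits, NFKB2 and RELB had the highest levels and REL was under 1 FPKM. NFKB2, which encodes the p100 precursor of the non-canonical pathway, measured 245 and 327 FPKM in the WT libraries against 158 and 313 in the CfzR libraries. The groups overlapped, with the lowest value in CfzR replicate 1 (log2 fold change -0.34, SE 0.36, limma adjusted p = 0.723). Without CfzR replicate 1 the log2 fold change was 0.15, so this library set the sign. RELB, the partner of processed NFKB2, measured 101 and 87.7 FPKM in the WT libraries against 104 and 146 in the CfzR libraries. Both CfzR values lay above WT, one of them narrowly (log2 fold change 0.38, SE 0.24, adjusted p = 0.574). After the length and GC correction it was 0.54 (SE 0.16, adjusted p = 0.238).

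RELA, the main activating subunit of the canonical pathway, measured 52.6 and 44.1 FPKM in the WT libraries against 53.0 and 41.3 in the CfzR libraries. The groups overlapped, and replicate 1 was above replicate 2 in each (log2 fold change -0.04, SE 0.22). NFKB1, which encodes the p105 precursor of its p50 partner, measured 28.5 and 28.7 FPKM in the WT libraries against 34.2 and 34.6 in the CfzR libraries. Its libraries were tight within each group and did not overlap, but the difference was small (log2 fold change 0.26, SE 0.18, adjusted p = 0.611). REL, the subunit typical of B cells, was low in all 4 libraries, with 0.367 and 0.578 FPKM for WT against 0.677 and 0.424 for CfzR. In order of mean level in WT, NFKB2 was followed by RELB, RELA, NFKB1 and REL. The same order held in each of the 4 libraries, and the ratio of NFKB2 to NFKB1 was 8.58 and 11.4 in WT and 4.62 and 9.05 in CfzR, with overlap.

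The inhibitors and feedback targets held the widest differences. BIRC3 (ENSG00000023445, chromosome 11, 102317450 to 102339403, plus strand, positions here and below from GENCODE release 29 on GRCh38) encodes cIAP2, a ubiquitin ligase that is induced by NF-kB and also restrains NIK. It measured 0.0789 and 0.222 FPKM in the WT libraries against 2.97 and 2.35 in the CfzR libraries. BIRC3 was thus near 0 in WT and low, but clearly present, in both CfzR libraries. The log2 fold change was 1.67 (SE 0.26, adjusted p = 0.0745), the 45th highest of all genes tested. It reached the filter on low values only through its CfzR level, the single member of which this was true, so no count of tested members is read as support for it. With so low a level in WT the size depended on the pseudocount (log2 fold change 3.52 with 0.1 and 0.57 with 5). The corrected log2 fold change was 1.40 (adjusted p = 0.0916). The adjusted p was 0.0447 without the mean-variance trend, 0.0110 without WT replicate 1 and 0.00392 without WT replicate 2, and it was 0.285 without CfzR replicate 1.

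BIRC2, the neighbouring gene for the related ligase cIAP1, begins 7807 bases beyond the end of BIRC3 on the same strand. It measured 26.2 and 31.2 FPKM in the WT libraries against 26.4 and 37.1 in the CfzR libraries, with overlapping groups (log2 fold change 0.12, SE 0.23). BIRC2 was therefore the main cIAP transcript in every library. The ratio of BIRC3 to BIRC2 was 0.00301 and 0.00712 in the WT libraries and 0.113 and 0.0634 in the CfzR libraries, without overlap.

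TNFAIP3 (ENSG00000118503, chromosome 6, 137867188 to 137883312, plus strand) encodes A20, a ubiquitin-editing enzyme that shuts off signalling to IKK. It measured 2.72 and 2.26 FPKM in the WT libraries against 10.4 and 6.53 in the CfzR libraries. Both CfzR libraries were well above WT and differed between themselves (log2 fold change 1.41, SE 0.26, adjusted p = 0.118). The log2 fold change was 1.39 after the length and GC correction and the adjusted p was 0.101. Without WT replicate 1 the adjusted p was 0.0183, and over all alternatives without the replicate block it reached 0.293 at most. A transcript annotated on the opposite strand of the gene, AL357060.1, measured 1.82 and 2.40 FPKM in the WT libraries against 5.70 and 6.15 in the CfzR libraries. The sources used here do not say whether counting used strand, so reads of this pair cannot be told apart and the TNFAIP3 level is uncertain to that extent.

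NFKBIA (ENSG00000100906, chromosome 14, 35401511 to 35404749, minus strand) encodes IkB alpha, the inhibitor that the proteasome destroys on canonical activation and that NF-kB then resynthesizes. It measured 33.7 and 37.3 FPKM in the WT libraries against 52.3 and 64.9 in the CfzR libraries. The groups were separate, with a gap wider than the distance within either group (log2 fold change 0.70, SE 0.21, adjusted p = 0.287). After the length and GC correction it was 0.84 (SE 0.14, adjusted p = 0.101). Its relative NFKBIE, which encodes IkB epsilon, measured 14.5 and 16.8 FPKM in the WT libraries against 14.1 and 18.5 in the CfzR libraries, with overlap (log2 fold change 0.05, SE 0.21). The ratio of NFKBIA to NFKBIE was 2.32 and 2.22 in WT and 3.71 and 3.52 in CfzR, so the balance between the inhibitor transcripts was shifted in both CfzR libraries by more than it varied within a group.

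The other feedback members gave smaller or discordant values. CYLD, a deubiquitinase that opposes IKK activation, measured 8.61 and 9.98 FPKM in the WT libraries against 13.02 and 11.6 in the CfzR libraries, without overlap (log2 fold change 0.37, SE 0.20, adjusted p = 0.526; with the length and GC correction 0.20). CFLAR, the inhibitor of caspase 8 that NF-kB induces, measured 104 and 169 FPKM in the WT libraries against 65.7 and 128 in the CfzR libraries, and the groups overlapped. Its replicate spread was the widest of the 33 (log2 fold change -0.53, SE 0.37). TNIP2, an A20-binding inhibitor, measured 41.5 and 47.8 FPKM in the WT libraries against 31.5 and 39.3 in the CfzR libraries (log2 fold change -0.33, adjusted p = 0.568; corrected -0.16). TNIP1, a partner of A20, BCL3, a nuclear IkB that works with NFKB1 and NFKB2 products, and NFKBIE had log2 fold changes of 0.01, 0.15 and 0.05 (corrected 0.13, 0.32 and 0.19). TRAF1 and NFKBIZ, both inducible by NF-kB, were under the filter. TRAF1 measured 0.583 and 0.580 FPKM in the WT libraries against 0.828 and 0.984 in the CfzR libraries, and NFKBIZ, a nuclear IkB, 0.145 and 0.808 against 0.805 and 0.963. Of the 12 feedback members 9 were tested, 7 had a positive log2 fold change, and the median of the 9 was 0.15 against -0.02 over all genes tested. The 9 included BIRC3, which reached the filter only through its CfzR level. With a filter at 5 FPKM, which of the 9 removes BIRC3 alone, the median was 0.095.

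**Figure D2:**
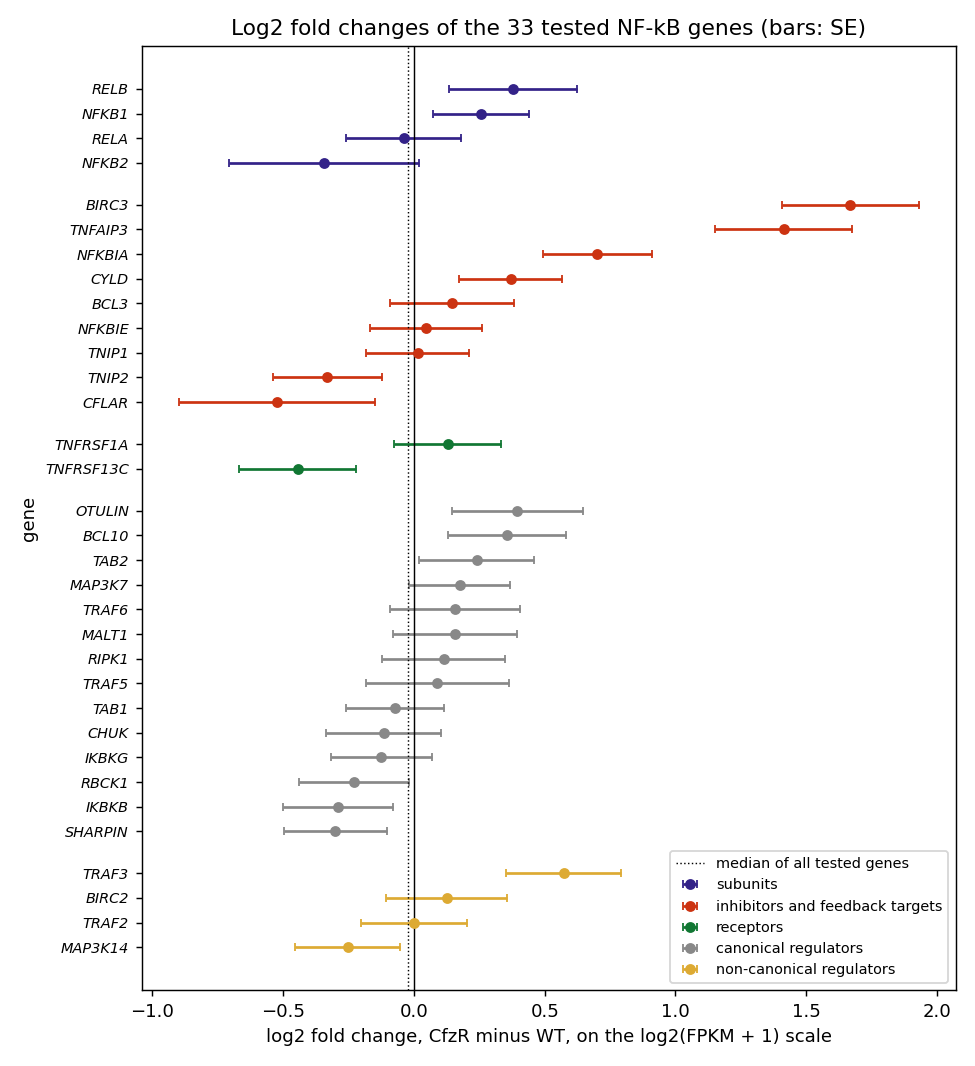
Log2 fold change of CfzR minus WT on the log2(FPKM + 1) scale with its SE, for the 33 tested genes grouped by role, and the median of all tested genes as a dotted line at -0.02. BIRC3, TNFAIP3 and NFKBIA lie furthest to the right, and the canonical regulators lie between -0.30 and 0.39.

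In the non-canonical pathway, the gene for the adaptor that holds NIK in check was higher in CfzR and the gene for NIK was not. TRAF3 (ENSG00000131323, chromosome 14, 102777476 to 102911500, plus strand) measured 6.59 and 5.74 FPKM in the WT libraries against 11.1 and 8.37 in the CfzR libraries. The groups were separate, and the CfzR libraries differed from each other by more than the WT libraries did (log2 fold change 0.57, SE 0.22, adjusted p = 0.408). After the length and GC correction the log2 fold change was 0.59. MAP3K14, which encodes NIK, measured 11.01 and 9.35 FPKM in the WT libraries against 8.71 and 8.01 in the CfzR libraries (log2 fold change -0.25, SE 0.20, adjusted p = 0.643). Its CfzR values lay just under the WT values. The ratio of TRAF3 to MAP3K14 was 0.598 and 0.615 in WT and 1.27 and 1.05 in CfzR. MAP3K14 was thus the more abundant of the pair in WT, and TRAF3 in both CfzR libraries. A transcript on the opposite strand, MAP3K14-AS1, measured 3.53 and 2.86 FPKM in the WT libraries against 4.18 and 3.56 in the CfzR libraries. With the use of strand in counting unknown, the MAP3K14 level and this order are uncertain to that extent.

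TRAF2, which bridges TRAF3 to the cIAP ligases, measured 26.6 and 28.2 FPKM in the WT libraries against 24.5 and 30.6 in the CfzR libraries, with the WT values inside the CfzR range and means of 27.4 ± 1.13 and 27.5 ± 4.29 (SD, n = 2 each). The 4 non-canonical regulators had a median log2 fold change of 0.06. The receptors with values were few. TNFRSF13C, the BAFF receptor, measured 2.76 and 2.78 FPKM in the WT libraries against 1.72 and 1.82 in the CfzR libraries. It was low in all libraries and lower in both CfzR libraries, by far more than the replicates differed, yet it did not pass (log2 fold change -0.44, SE 0.22, adjusted p = 0.506). TNFRSF1A, the main TNF receptor, measured 17.3 and 14.3 FPKM in the WT libraries against 18.9 and 15.8 in the CfzR libraries, with overlap (log2 fold change 0.13, SE 0.21).

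**Figure D3:**
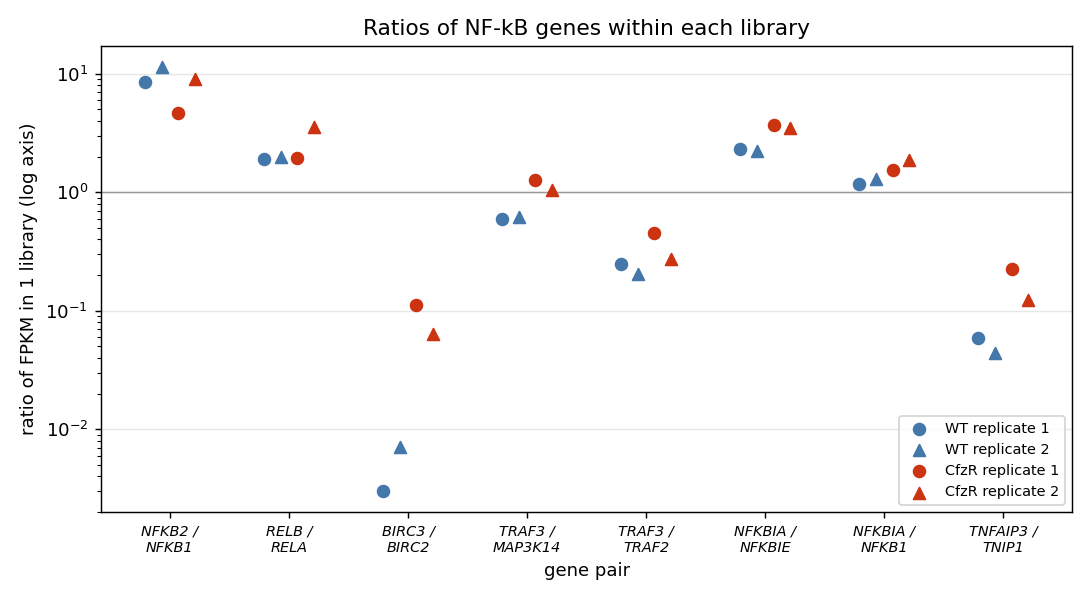
Ratio of FPKM of a pair of NF-kB genes within 1 library, on a log axis, for 8 pairs, with colours and symbols for group and replicate. The ratios TRAF3 to MAP3K14, BIRC3 to BIRC2 and NFKBIA to NFKBIE are separated between WT and CfzR, and NFKB2 to NFKB1 and RELB to RELA are not. The pairs were chosen with the values known.

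The canonical regulators as a group lay near the median of all genes. None of the 14 tested reached an unadjusted p under 0.05. Their log2 fold changes ran from -0.30 to 0.39 with a median of 0.10, 8 of them positive. The log2 fold changes of the 3 IKK subunits were negative, and none passed. IKBKB, the catalytic subunit of canonical signalling, measured 20.1 and 16.9 FPKM in the WT libraries against 13.3 and 16.7 in the CfzR libraries (log2 fold change -0.29, SE 0.21). CHUK, the other catalytic subunit, and IKBKG, the regulatory subunit NEMO, had log2 fold changes of -0.11 and -0.12. The CHUK libraries overlapped between groups, its sign turned without WT replicate 2 (0.046), and its corrected value was -0.34. The level of IKBKG is uncertain while the use of strand in counting is unknown, and its sign turned after the length and GC correction (0.04).

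Parts of the linear ubiquitin machinery that feeds IKK differed in sign. SHARPIN and RBCK1, subunits of the ligase LUBAC, had log2 fold changes of -0.30 (SE 0.20) and -0.23 (SE 0.21), which shrank to -0.10 and -0.09 after the correction. SHARPIN measured 27.5 and 24.2 FPKM in the WT libraries against 19.2 and 22.4 in the CfzR libraries, and overlaps MAF1 on the opposite strand. OTULIN, which removes linear ubiquitin chains, measured 7.68 and 6.14 FPKM in the WT libraries against 11.5 and 7.58 in the CfzR libraries, and only CfzR replicate 1 was above both WT libraries (log2 fold change 0.39, SE 0.25; without that library 0.12). BCL10 and MALT1, which relay antigen receptor signals to IKK, had log2 fold changes of 0.36 (SE 0.23) and 0.16 (SE 0.24). BCL10 measured 3.84 and 4.27 FPKM in the WT libraries against 6.33 and 4.69 in the CfzR libraries, without overlap.

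The kinase gene MAP3K7 (TAK1) and its partners TAB1 and TAB2 had log2 fold changes of 0.17, -0.07 and 0.24, and corrected values of 0.0030, 0.043 and 0.093. The adaptor genes TRAF6, TRAF5 and RIPK1 had log2 fold changes of 0.16, 0.09 and 0.11 (corrected 0.05, -0.01 and 0.10). AL031963.3, on the opposite strand of RIPK1, measured 1.36 and 2.37 FPKM in WT against 2.60 and 3.65 in CfzR. With the use of strand in counting unknown, the RIPK1 level is uncertain to that extent. In TRAF6, TRAF5, RIPK1 and MALT1 CfzR replicate 1 was above the WT mean and CfzR replicate 2 below it, and without CfzR replicate 1 all 4 had negative values. These were the 4 canonical regulators of 14 whose CfzR libraries lay on opposite sides of WT, and 10 of the 14 were higher in CfzR replicate 1 than in CfzR replicate 2.

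**Figure D4:**
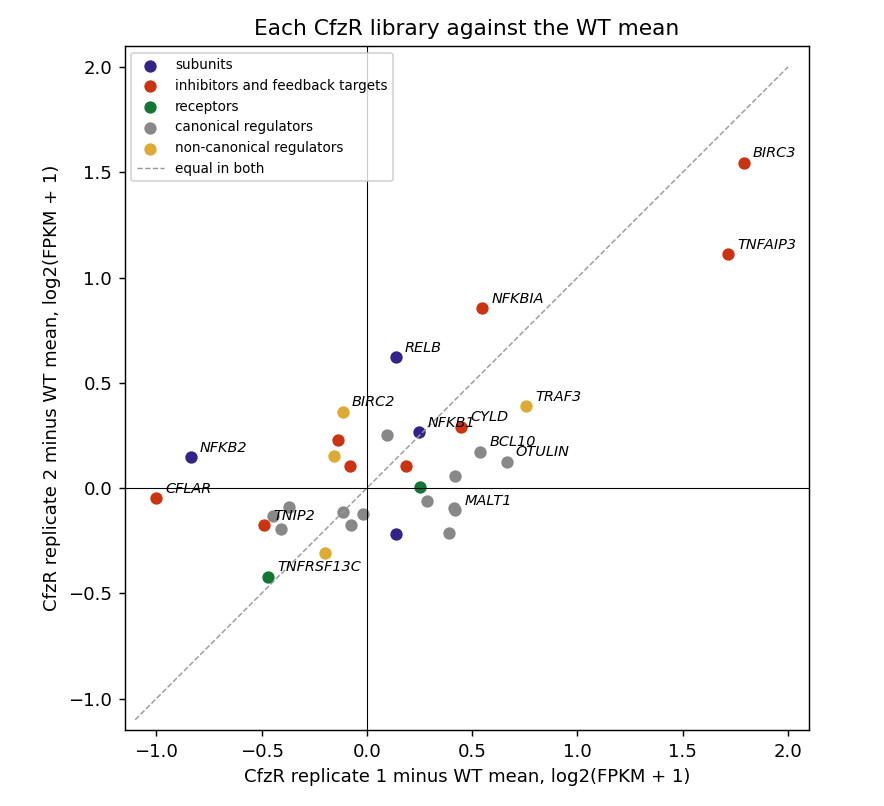
Difference of each CfzR library from the WT mean on the log2(FPKM + 1) scale, CfzR replicate 1 on the x axis and CfzR replicate 2 on the y axis, for the 33 tested genes coloured by role. BIRC3 and TNFAIP3 lie far up the diagonal, while NFKB2 and CFLAR are low in CfzR replicate 1 alone.

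Across the 33 tested members, 13 lay above the WT mean in both CfzR libraries, 10 below it in both, and 10 on opposite sides. The groups did not overlap for 9 members that were higher in CfzR (27.3%, or 8 of 32 without BIRC3) and for 6 that were lower (18.2%). Over all genes tested these shares were 22.1% and 22.6%, and 44.7% together, against 45.5% of the members. Separation of the groups was thus about as common among NF-kB genes as elsewhere. Positive log2 fold changes were found for 21 members (63.6%, against 47.1% of all genes, with 52.9% of all genes negative), with a median of 0.11 (0.10 without BIRC3). The CfzR libraries lay further apart than the WT libraries for 28 of 33 members, with a median absolute log2 difference of 0.31 against 0.18, and for all genes tested these medians were 0.32 and 0.18. In bulk RNA, fewer cells with a transcript and less of it per cell cannot be told apart.

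Further genes of the pathway, from lists written with earlier results known, gave few calls. Of 20 other NF-kB targets tested (of 40 listed), RGS1, which encodes an inhibitor of G protein signals, rose from 3.48 and 3.25 FPKM to 17.2 and 16.7 (log2 fold change 2.04, SE 0.19, adjusted p = 0.0125). Leaving out CfzR replicate 1 raised its adjusted p to 0.112, and leaving out CfzR replicate 2 raised it to 0.0822. No other target passed. IL15, a cytokine, measured 1.94 and 1.92 FPKM in the WT libraries against 5.73 and 5.54 in the CfzR libraries, an equally tight separation at a low level (log2 fold change 1.18, SE 0.21, adjusted p = 0.110). ZC3H12A, an RNase that degrades inflammatory transcripts, measured 2.99 and 2.55 FPKM in the WT libraries against 5.24 and 5.08 in the CfzR libraries (adjusted p = 0.295). EBI3, a cytokine subunit, had values of 1.14 and 1.80 against 2.41 and 4.499. WNT10A, IRF1 and PIM2 had log2 fold changes of 0.48, 0.48 and 0.39. For IRF1 this rested on CfzR replicate 1, without which it was -0.02. PIM2, a survival kinase of myeloma cells, was abundant, at 686 and 656 FPKM in the WT libraries against 870 and 890 FPKM in the others. Log2 fold changes were positive for 13 of the 20 targets and negative for 7, XIAP (-0.30), EMP3 (-0.26), GADD45B (-0.25), SOD2 (-0.20) and IL2RG (-0.20) among them, with a median of 0.24. Over all genes tested 47.1% were positive and the median was -0.02. The targets WNT10A and BCL2A1 had a WT mean under 1 FPKM and reached the filter only through CfzR. At an unadjusted p under 0.05, 4 were higher (20% of the list, against 5.32% of all genes) and 0 lower (5.81% of all genes). The list was written with earlier results of these data known, so these counts and the median are not read as support.

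Among 33 other pathway genes tested (of 46 listed), 0 passed in limma in either direction. At an unadjusted p under 0.05, 0 were higher and 3 lower (9.09% of the list, against 11.1% of all genes in either direction and 5.81% lower), and the median log2 fold change was 0.02. The share in either direction was thus near that of all genes. The 3 were TNFRSF11A, CUL1 and NLRC5. TNFRSF11A, which encodes the receptor RANK, measured 6.88 and 8.03 FPKM in the WT libraries against 4.48 and 3.94 in the CfzR libraries (adjusted p = 0.294). CUL1, the scaffold of the ubiquitin ligase that tags IkB, measured 47.1 and 48.9 FPKM in the WT libraries against 34.8 and 28.9 in the CfzR libraries (log2 fold change -0.58, SE 0.20, adjusted p = 0.350). NLRC5, a regulator of MHC class I genes, had a log2 fold change of -0.50. TNFRSF17, which encodes BCMA, had one of -0.58 (SE 0.28), and FBXW11, an IkB-recognizing subunit of that same ligase, and TAB3 had 0.41 and 0.47.

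A list of 11 genes used to read NF-kB activity in myeloma was written from memory, and 7 of its genes are members already described. Of these 11, 9 were tested, 0 passed (against 0.35% of all genes), and 7 had positive log2 fold changes with a median of 0.38. Over all genes tested 47.1% were positive and the median was -0.02. BIRC3 and WNT10A had a WT mean under 1 FPKM and reached the filter only through CfzR, so the count is not read as support. IL2RG, a cytokine receptor chain, measured 154 and 136 FPKM in the WT libraries against 122 and 131 in the CfzR libraries (log2 fold change -0.20, adjusted p = 0.727). CD74, the class II invariant chain, was under the filter, with 0.639 and 0.265 FPKM for WT against 1.55 and 1.45 for CfzR. Within this list the genes at the highest level, NFKB2 and IL2RG, had negative log2 fold changes, and the genes with the largest positive ones, BIRC3 and TNFAIP3, were at low levels.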

How the data were processed

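The authors deposited 1 table of FPKM values for 15201 Ensembl IDs in 4 libraries, made with STAR and Cufflinks per the submitters' processing notes. Versions, genome build, annotation and use of strand are not stated. Columns named for a control were assigned to WT, the only group not labelled as carfilzomib resistant. FPKM give no depth, hence no counting error.

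Symbols were found for 15027 IDs. After a filter at a mean of 1 FPKM, log2(FPKM + 1) values were fitted with limma 3.58.1 in R 4.3.3 (CfzR minus WT, eBayes with trend, two-sided), and p-values were adjusted by Benjamini-Hochberg over all 13411 genes with a threshold of 0.05. This scale understates changes of low genes. Plain folds are ratios of mean FPKM. No label says that replicates were separate cultures, so the p-values may reflect technical spread alone. Every member is named, and from the lists of other pathway genes and targets the genes past the threshold and the 6 with the next lowest p. Others in the text were chosen after their values were seen. The members and lists were chosen with earlier results of these data known. The procedure was tested on simulated data with 200 changed genes. It recovered 0% of log2 changes of 1, 56.9% of those of 2 and 88.4% of those of 4, and 2% of calls were false. Not passing is therefore no sign that a member was unchanged. The changed genes had a mean log2(FPKM + 1) over 2, so these rates do not cover lower genes such as BIRC3. Simulated noise was independent between libraries, without the length and GC trend of CfzR replicate 1. Alternatives were other pseudocounts and filters, trimmed-mean (TMM) and quantile scaling, no trend, a replicate block, leaving out each library and, added after the data were seen, removal of trends with transcript length and GC share (splines with 4 degrees of freedom, GENCODE release 29). Promoters came from RefSeq for 34 members.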

Additional observations from a re-analysis of the deposited data

How the results depend on the processing

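No member passed the adjusted threshold with limma as reported, and 4 had an unadjusted p under 0.05. Under the 13 alternatives 18 of the 33 tested members kept the sign of their log2 fold change, BIRC3, TNFAIP3, NFKBIA, TRAF3, RELB and NFKB1 among them, and 15 took the other sign at least once, none of them larger than 0.345 in size as reported. Without the mean-variance trend 1 member passed (BIRC3). The replicate numbers are shared by the groups, and the deviations of same-numbered libraries had a correlation of 0.252 across genes, but nothing in the labels pairs them. With the replicate number as a block 3 members passed as higher, BIRC3, TNFAIP3 and NFKBIA, among 487 higher and 755 lower genes, in a fit with 1 residual degree of freedom per gene. With 1 library left out, 0 to 2 members passed as higher, against 8 to 118 of all genes higher and 7 to 142 lower. In those fits a lone library is assumed to vary like the other group. With a filter at 5 FPKM, which removes BIRC3, 18 genes were higher and 9 lower. The median log2 fold change of the members was 0.060 with a pseudocount of 5, 0.054 with the length and GC correction and 0.060 to 0.14 with 1 library left out. For feedback members it was 0.27 with no filter, 0.095 with the filter at 5, 0.24 under quantile normalization and 0.1985 after the correction. For receptors it was -0.24 and -0.047 with pseudocounts of 0.1 and 5, 0.13 with the filter at 5 and -0.055 after the correction. For subunits under quantile normalization it was 0.22, and for canonical regulators with the filter at 5 it was -0.072. With 1 library left out these medians ran from 0.14 to 0.27 for inhibitors and feedback targets, -0.10 to 0.19 for canonical regulators and -0.13 to 0.26 for non-canonical regulators. Signs turned for TRAF2 with a pseudocount of 0.1 (-0.00025), for RELA under quantile normalization (0.095), and after the correction for RELA (0.054), TRAF5 (-0.011), TAB1 (0.043), IKBKG (0.035), MALT1 (-0.015) and BIRC2 (-0.052). With 1 library left out the log2 fold changes of members whose sign turned ran from -0.22 to 0.14 for RELA, from -0.14 to 0.23 for NFKBIE, from -0.079 to 0.11 for TNIP1, from -0.15 to 0.15 for TRAF2, from -0.13 to 0.42 for BCL3, from -0.0013 to 0.26 for TNFRSF1A, from -0.28 to 0.046 for CHUK, from -0.84 to 0.15 for NFKB2, from -0.21 to 0.39 for TRAF5, from -0.095 to 0.41 for TRAF6, from -0.11 to 0.42 for MALT1, from -0.059 to 0.29 for RIPK1 and from -0.11 to 0.36 for BIRC2. The cause of these shifts was not tested. Depth is unknown, so the precision of genes under 1 FPKM, BIRC3 in WT included, could not be given.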
